A study of Homo sapiens with 12 samples.

Results

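The genes described here are the numbered ZNF genes of human chromosome 19, a family of DNA-binding zinc finger proteins, followed through RNA-Seq of A549 cells. A549 is an epithelial line grown from a human lung adenocarcinoma. Membership was set by annotation, as every protein-coding gene on chromosome 19 whose symbol starts with ZNF and a number, which gave 247 genes of 58797 annotated in the comparison tables. Another 264 genes of the same kind lie on other chromosomes, and chromosome 19 holds 1224 other protein-coding genes. In the knockdown experiment, 3 libraries of A549 cells given a lentiviral shRNA against BTLA (shBTLA) were compared with 3 libraries of cells given the control vector (shControl), both under puromycin selection. In the sort, A549 cells were divided by flow cytometry with a BTLA antibody into BTLAlow and BTLAhigh cells, which were then cultured, with 3 libraries each. BTLA is an inhibitory receptor best known from lymphocytes, and the comparisons ask how A549 cells differ when it is reduced or low. The shRNA behind the sequenced cells is not stated, nor are separate cultures for the 3 libraries of each group. The p-values thus measure the spread of these libraries alone, and part of that spread may be technical.

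Most zinc finger proteins of this chromosome carry a KRAB box in front of an array of fingers. The fingers read DNA, often within a transposable element, and the KRAB box recruits TRIM28 (also called KAP1), which brings the histone methyltransferase SETDB1 and heterochromatin proteins and so represses the site. The genes arose by repeated tandem duplication and lie in clusters of neighbours of like sequence. Members without a KRAB box include general transcription factors and proteins of other functions.

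Library depth ranged from 29130357 to 42488067 reads. Almost no BTLA read was counted, with 0 reads in all 3 shBTLA libraries and 0, 0 and 2 reads in shControl, and with 0 reads in all 3 BTLAlow libraries and 0, 0 and 2 reads in BTLAhigh, so the labels could not be checked by it. The 6 markers of A549 and epithelial cells differed between groups, with sums of 20619 to 22708 RPM, the reads of a gene divided by the library total and scaled by 1000000, in shBTLA, 14173 to 15866 in shControl, 30911 to 33096 in BTLAlow and 21045 to 23090 in BTLAhigh. The 6 lymphocyte markers summed to at most 1.19 RPM with CD3E, CD3D and MS4A1 at 0 reads throughout, the 4 myeloid markers to at most 5.51 RPM, and the 6 endothelial and fibroblast markers to at most 3.43 RPM. The members together took 1872 to 2075 RPM of each knockdown library and 1834 to 1987 RPM of each sort library. In the sort this sum was 1948, 1987 and 1915 RPM in BTLAlow against 1867, 1834 and 1885 RPM in BTLAhigh, and the groups did not overlap. Ribosomal protein genes were lower on average, with 7.61% ± 0.983 of reads in BTLAlow and 9.44% ± 1.27 in BTLAhigh (mean ± SD, n = 3). These groups overlapped, with BTLAlow 1 at 8.29% and BTLAhigh 3 at 8.09%. Mitochondrially encoded genes took 6.92% ± 0.274 in BTLAlow and 5.44% ± 0.301 in BTLAhigh. Every library was centred on the median gene before the comparisons, as planned. Without centring, the median of all genes tested stood 0.18 higher in BTLAlow on the log2 scale (and at -0.02 in the knockdown). The part of library composition in the results below was not tested.

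The members fell into 3 groups by detection. No read was assigned to 33 of the 247 members in any of the 12 libraries, 47 had reads but too few to be tested, and 167 reached 10 reads in at least 3 of the 6 libraries of one experiment. Of these, 166 were tested in the knockdown and 163 in the sort, 162 of them in both. No tested member reached 10 reads in libraries of 1 group only. A library with 0 reads allows up to 3 reads, which is 0.0706 RPM in the deepest library and 0.103 RPM in the shallowest, counting error only. The share of members at 0 was 13.4%, beside 14.5% of the 19986 protein-coding genes. The zeros were not spread evenly along the chromosome. On the short arm 26 of 84 members were listed at 0, and on the long arm 7 of 163.

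Members were divided into 16 clusters by gaps of more than 1000000 bases between gene starts. The cluster from 11.5 to 12.6 Mb (GRCh38) held 26 members, of which 14 were listed at 0 and 9 were tested. Within it, 12 members in a row from ZNF491 to ZNF625 had 0 reads, and so had the 4 other protein-coding genes between 11797667 and 12156731. Nearby members on both sides had reads, with 1831 reads over the 12 libraries for ZNF823 and 754 for ZNF136. The cluster from 19.7 to 24.1 Mb, known for genes that expanded in primates, held 36 members with 10 at 0 and 15 tested, and its 8 members from ZNF676 to ZNF730 were all at 0. The cluster from 51.6 to 53.6 Mb had 4 of 40 members at 0 and 18 more with too few reads. By contrast, all 23 members from 43.5 to 45.1 Mb were tested, and 53 of 58 members in the cluster from 55.5 to 58.5 Mb next to the long-arm telomere. The plot of levels in chromosome order shows these blocks.

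**Figure D1:**
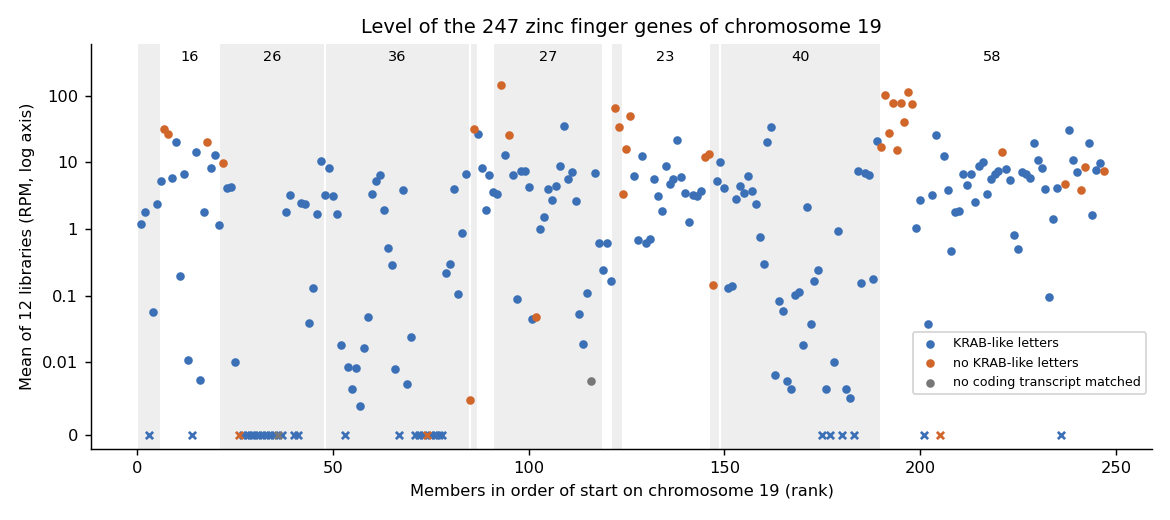
Mean level over the 12 libraries (RPM, log axis) of each of the 247 members, in order of start on chromosome 19, with crosses for the 33 members at 0 and shading that alternates between the 16 clusters (numbers give the members of the larger clusters). The blocks at 0 lie in the clusters of 26 and 36 members, and the members without KRAB-like letters (orange) hold the highest levels.

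Counting can also leave a gene empty, because a read that lies in the exons of 2 genes may be assigned to neither. In all, 180 members shared part of their span with another gene of the files, on either strand. This held for 29 of the 33 members at 0, for 37 of the 47 with few reads and for 114 of the 167 tested. Between ZNF491 and ZNF625, for example, ZNF20 and ZNF625 are both spanned in part by the read-through gene ZNF625-ZNF20, and all of these were at 0. Nearby, WDR83OS and PRDX2, genes that most cells express, had 0 and 34 reads over all libraries, and both overlap other genes. ZNF440, ZNF69, ZNF563 and ZNF442 were at 0 with no overlapping gene, and for 27 of the other 29 no overlapping gene held more than 10 reads. Sequence shared with other genes is a further limit, since reads that fit several places may be dropped. Of the longest coding transcript of each member cut into stretches of 100 bases, 10 of the members at 0 and 29 of those tested shared over 10% of the stretches with another gene, led by ZNF177 with 93.3%, which had 0 reads. Being listed at 0 is therefore a statement about the counted table, and the part of overlap and shared sequence in it was not tested.

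The start regions of 4 members are shown because CG dinucleotides, the sites of DNA methylation, set apart members with and without reads only in part. Each is the stretch of 250 bases before the RefSeq transcription start (GRCh38.p14), read on the strand of the gene, with every CG in capitals. ZNF266 had the smallest p of the members higher in BTLAlow (chr19:9435574-9435823, minus strand, 12 CG), and ZNF787 was the most abundant of those lower in BTLAlow (chr19:56121296-56121545, minus strand, 27 CG). ZNF667 was at 0 with the most CG of the members at 0 (chr19:56477346-56477595, minus strand, 35 CG). ZNF69 was at 0 with the fewest CG of those at 0 that overlap no gene (chr19:11887532-11887781, plus strand, 7 CG).
ZNF266: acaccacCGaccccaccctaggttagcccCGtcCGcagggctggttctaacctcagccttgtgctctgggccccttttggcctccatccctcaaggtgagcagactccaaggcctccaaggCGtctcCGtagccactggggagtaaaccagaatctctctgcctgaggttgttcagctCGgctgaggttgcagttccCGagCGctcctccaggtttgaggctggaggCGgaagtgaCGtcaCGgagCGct
ZNF787: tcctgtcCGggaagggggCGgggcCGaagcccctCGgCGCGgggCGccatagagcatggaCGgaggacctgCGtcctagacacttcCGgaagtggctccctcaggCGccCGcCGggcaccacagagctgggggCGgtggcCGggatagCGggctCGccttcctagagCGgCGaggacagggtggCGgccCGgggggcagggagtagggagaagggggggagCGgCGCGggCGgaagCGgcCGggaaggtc
ZNF667: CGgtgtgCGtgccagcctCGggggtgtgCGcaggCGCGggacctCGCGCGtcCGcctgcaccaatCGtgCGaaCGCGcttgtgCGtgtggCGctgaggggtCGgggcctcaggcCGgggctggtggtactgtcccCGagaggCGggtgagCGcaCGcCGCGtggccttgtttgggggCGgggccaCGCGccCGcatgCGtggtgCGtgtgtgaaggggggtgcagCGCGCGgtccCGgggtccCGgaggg
ZNF69: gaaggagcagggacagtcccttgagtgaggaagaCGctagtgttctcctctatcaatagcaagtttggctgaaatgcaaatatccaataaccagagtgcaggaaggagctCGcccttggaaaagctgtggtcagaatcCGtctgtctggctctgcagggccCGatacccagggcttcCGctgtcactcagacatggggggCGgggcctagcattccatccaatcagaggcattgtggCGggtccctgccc
A start region was found for 216 of the 247 members. CG counts had a median of 17 in 153 tested members, 14.5 in 36 members with few reads and 12 in 27 members at 0, and 11 over the 27305 genes of the table, of which 93.6% held at least 1 CG. Their ranges overlapped, at 1 to 32 in the tested members and 4 to 35 in those at 0. Of the members at 0, 4 of 27 had at least 20 CG (ZNF135, ZNF835, ZNF677 and ZNF667, all on the long arm), beside 54 of 153 tested members and 32.1% of all genes. Methylation was not measured here.

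Levels of the tested members were low for most. The mean over the 12 libraries had a median of 5.63 RPM and ran from 0.197 to 147 RPM, and 42 of 167 members stood above 10 RPM. The letters of a KRAB box were found in the longest open reading frame of a coding transcript for 211 members and not in 34, and 2 had no coding transcript to read. This search can miss a diverged box, as in ZNF446 and ZNF180, which are known as KRAB proteins. Members without the letters were the more abundant per length. Their median was 7.88 RPM per 1000 exon bases (28 tested, range 0.983 to 35.5), against 0.787 (139 tested, range 0.0257 to 7.05) for those with the letters, and the 10 highest members per length all lacked them. They also had fewer fingers, with a median of 9 against 13. These 10 included ZNF146 (35.5 RPM per 1000 exon bases), a protein made almost only of fingers and also called OZF, and ZNF428, ZNF579, ZNF787 and ZNF580 (32.3, 31.5, 30.7 and 29.9). ZNF579, ZNF580 and ZNF787 lie within 1 cluster, at 55.5 to 58.5 Mb.

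Members with a known role ranged from the top of the family to 0 reads. ZNF146 had 157, 142 and 167 RPM in shBTLA and 215, 134 and 158 RPM in shControl, and between 111 and 156 RPM in the 6 sort libraries. ZNF274, which binds the 3′ ends of zinc finger genes and recruits SETDB1 there, had 27.2 to 30.6 RPM in shBTLA, 27.4 to 41.1 in shControl, 26.7 to 31.6 in BTLAlow and 25.6 to 31.9 in BTLAhigh. ZNF331, an imprinted gene, stood between 18.2 and 23.6 RPM in all 12 libraries. For each of these genes the groups of an experiment overlapped. ZNF350, a partner of BRCA1 also called ZBRK1, had 4.03 RPM ± 0.823 in shBTLA and 4.53 ± 0.0358 in shControl, and 4.77 ± 0.327 in BTLAlow and 4.24 ± 0.762 in BTLAhigh (mean ± SD, n = 3 each). ZNF420 stood at 3.60 to 4.50 RPM and ZNF180 at 11.8 to 12.8 RPM on average in the 4 groups. Neither ZNF350, ZNF420 nor ZNF180 passed in either comparison (limma, smallest adjusted p = 0.534).

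Several silencers of transposable elements and other members with a known role were near or at 0. ZNF93, which represses LINE elements, and ZNF667 had no read in any library. ZNF91, the repressor of SVA elements, had 8, 10 and 18 reads in shBTLA, 18, 10 and 8 in shControl, 8, 12 and 4 in BTLAlow and 12, 16 and 4 in BTLAhigh. The groups overlapped in both experiments, with log2 differences of -0.16 ± 0.42 (SE) and -0.36 ± 0.46 that did not pass (limma, adjusted p = 0.913 and 0.608). ZNF382, a repressor of NF-kB signalling, had 36 reads over the 12 libraries, ZNF649 had 60, and ZNF85 and ZNF257, both of the primate cluster, had 21 and 10, so none of these 4 could be tested. ZNF43, of the same cluster, was read better, at 4.62 RPM ± 0.844 in shBTLA, 4.11 ± 0.899 in shControl, 3.07 ± 1.11 in BTLAlow and 3.85 ± 0.870 in BTLAhigh. Its log2 differences of 0.20 ± 0.20 and -0.52 ± 0.24 did not pass (limma, adjusted p = 0.754 and 0.135), though the sort difference passed without BTLAlow 2 (-0.76, adjusted p = 0.0371).

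In the knockdown no member was called. Each gene was compared between shBTLA and shControl with limma on log2(RPM + 0.1) of the median-centred libraries, with p adjusted by Benjamini-Hochberg over all 16630 genes tested, and called at an adjusted p under 0.05. None of the 166 members passed in either direction, against 153 genes called higher and 137 lower among all tested (0.92% and 0.824%, together 1.74%). Before adjustment, 2 members were higher and 5 lower at p under 0.05, beside 1039 and 990 of all 16630 genes. With limma voom on the recovered reads 0 members were called as well, beside 1.77% of all genes. The other zinc finger genes gave a like count, with 0 of 222 called, while 15 of 794 other protein-coding genes of chromosome 19 were called. The members' log2 differences had a median of -0.05 (0.01 over all genes, -0.01 over protein-coding genes, -0.05 over other zinc finger genes, 0.03 over the other protein-coding genes of the chromosome). From the 10th to the 90th percentile they spanned -0.35 to 0.24, and their standard error had a median of 0.197 with a range of 0.0916 to 0.581. All 3 shBTLA libraries lay on one side of all 3 shControl libraries for 25 members (8 higher, 17 lower), which is 15.1% of those tested. This share was 19.3% over all genes and 14.4% over other zinc finger genes. Non-overlap is easier with fewer libraries, and the count was 45 (27.1%, all genes 31.0%) without shControl 1 and 55 (33.1%, all genes 41.7%) without shControl 2.

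The members nearest to a call show the size of difference these libraries hold. ZNF227 was the smallest p among those with higher values, at 6.68, 7.38 and 6.47 RPM in shBTLA and 5.60, 4.47 and 5.05 RPM in shControl. Its groups did not overlap, with a log2 difference of 0.47 ± 0.15 (SE, limma, adjusted p = 0.226). ZNF772 was the first among those with lower values, at 2.21, 2.08 and 2.32 RPM against 4.29, 3.27 and 2.89. Every shBTLA library was below every shControl library, and the difference was -0.59 ± 0.19 (adjusted p = 0.249). ZNF254, of the primate cluster, had 6.16, 5.22 and 6.28 RPM against 9.13, 7.03 and 7.78 (-0.40 ± 0.14, adjusted p = 0.294). ZNF71 had 21.4, 20.2 and 23.6 RPM against 28.4, 25.3 and 28.1 (-0.30 ± 0.11, adjusted p = 0.308), again without overlap. Next by p in each direction came ZNF585B, ZNF30, ZNF473 and ZNF546 with higher values (0.39, 0.35, 0.27 and 1.01) and ZNF530 and ZNF426 with lower ones (-0.41 and -0.55). ZNF546 had only 10 to 14 reads in shBTLA and 10, 0 and 4 in shControl, and those groups overlapped. Its shBTLA libraries alone met the filter of 10 reads in 3 libraries, and its difference was 0.53 without shControl 2. ZNF585B shared 17.1% of its 100-base stretches with other genes.

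**Figure D2:**
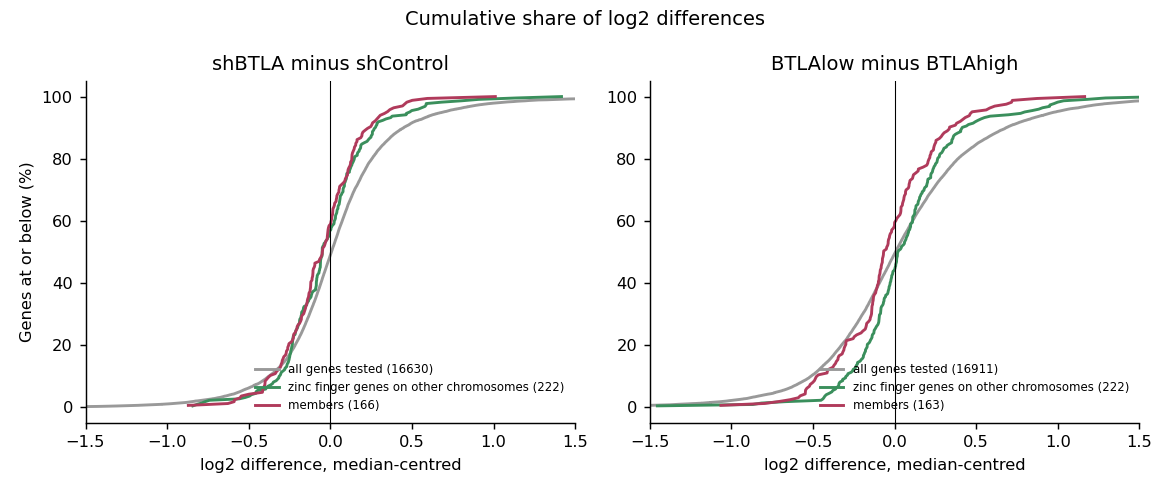
Cumulative share of genes (%) at or below each log2 difference of median-centred values, for shBTLA minus shControl (left) and BTLAlow minus BTLAhigh (right). In both panels the members (red, 166 and 163 genes) rise more steeply than all genes tested (grey, 16630 and 16911), with the 222 zinc finger genes of other chromosomes in green, and the members' median lies at -0.05 and -0.07.

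In the sort, 5 members were called higher in BTLAlow and 8 lower, of 163 tested. This was 7.98% of the members, against 25.3% of all 16911 genes tested (12.1% called higher and 13.2% lower), 9.91% of 222 other zinc finger genes and 32.7% of 816 other protein-coding genes of chromosome 19. The smaller share was seen at each level of expression. In members of 3 to 10 RPM 3.95% of 76 were called against 28.0% of all genes at that level, and above 10 RPM 18.6% of 43 against 31.7%. Standard errors were close, with medians of 0.164 and 0.168 at 3 to 10 RPM and 0.116 and 0.105 above 10 RPM. The members' log2 differences had a median of -0.07 (0.01 over all genes, 0.02 over other zinc finger genes, -0.09 over other protein-coding genes of the chromosome). From the 10th to the 90th percentile they spanned -0.46 to 0.34. All genes spanned -0.51 to 0.68, and the other zinc finger genes -0.29 to 0.41. BTLAlow and BTLAhigh did not overlap for 36 members (15 higher, 21 lower), which is 22.1%. This share was 41.2% over all genes and 29.3% over other zinc finger genes.

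Which members passed, and the balance of higher and lower calls, depended on the centring. Scaled to library totals with no centring, 12 members were called higher and 1 lower, with a median of 0.11, while over all genes 3238 were called higher and 1057 lower with a median of 0.18. All 5 members called higher also passed on that scale, and ZNF787 alone of the 8 called lower. Leaving out single libraries moved the counts of members and of all genes. Without BTLAhigh 3, 12 members were called higher and 9 lower, together 12.9% beside 32.2% of all genes. Without BTLAhigh 1, 3 were called higher and 3 lower (3.68% beside 11.7%), and those called lower numbered 5 without BTLAhigh 2 (6.75% called in all beside 18.5%) and 5 without BTLAlow 3 (5.52% beside 13.4%). Members without overlap, again easier with fewer libraries, were 58 (35.6%, all genes 49.7%) without BTLAlow 1 and 67 (41.1%, all genes 58.3%) without BTLAhigh 3. The median became -0.03 without BTLAlow 3 and 0 without BTLAhigh 3.

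The 5 members called higher were ZNF266, ZNF554, ZNF558, ZNF446 and ZNF224. ZNF266 had the tightest values, at 19.8, 20.3 and 20.1 RPM in BTLAlow and 12.6, 13.1 and 13.2 RPM in BTLAhigh. The groups stood well apart, and the centred log2 difference was 0.46 ± 0.10 (SE, limma, adjusted p = 0.00827). ZNF554, a KRAB protein studied in the placenta, had the largest difference of the 5. Its levels were 2.69, 2.22 and 2.37 RPM against 1.02, 1.06 and 0.663 (1.16 ± 0.26, adjusted p = 0.0109), and it was the only one of the 13 members called that passed in all 14 alternatives tried. ZNF558, a repressor of the mitophagy gene SPATA18, had 7.86, 11.8 and 7.64 RPM against 4.25, 4.82 and 5.31. BTLAlow 2 was the high library, and the difference of 0.72 ± 0.17 (adjusted p = 0.0135) did not pass without BTLAhigh 1 (adjusted p = 0.0697). ZNF224, a KRAB repressor first described at the aldolase A gene, had 13.9, 13.6 and 14 RPM against 8.73, 5.46 and 9.13 (0.68 ± 0.17, adjusted p = 0.0175). Its BTLAhigh libraries were spread and BTLAhigh 2 was lowest, and the call was lost without BTLAlow 1 or BTLAlow 3 (adjusted p = 0.0547 and 0.0698). ZNF446 had 10.3, 10.8 and 9.27 RPM against 6.29, 6.19 and 6.73 (0.48 ± 0.12, adjusted p = 0.0163), and the call was lost without BTLAlow 1 or BTLAhigh 1 (0.0605 and 0.0634). ZNF446 shares part of its span with SLC27A5 and ZNF324, while ZNF266 and ZNF554 overlap no gene. ZNF226, of the same cluster as ZNF224, had 26.8, 23.4 and 24.8 RPM against 17.5, 18 and 17.1 and just missed the threshold (0.34 ± 0.11, adjusted p = 0.0518). It passed in 7 of 14 alternatives, library totals and leaving out BTLAlow 2 (adjusted p = 0.00666 and 0.0289) among them, and was chosen for mention after its values were seen.

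**Figure D3:**
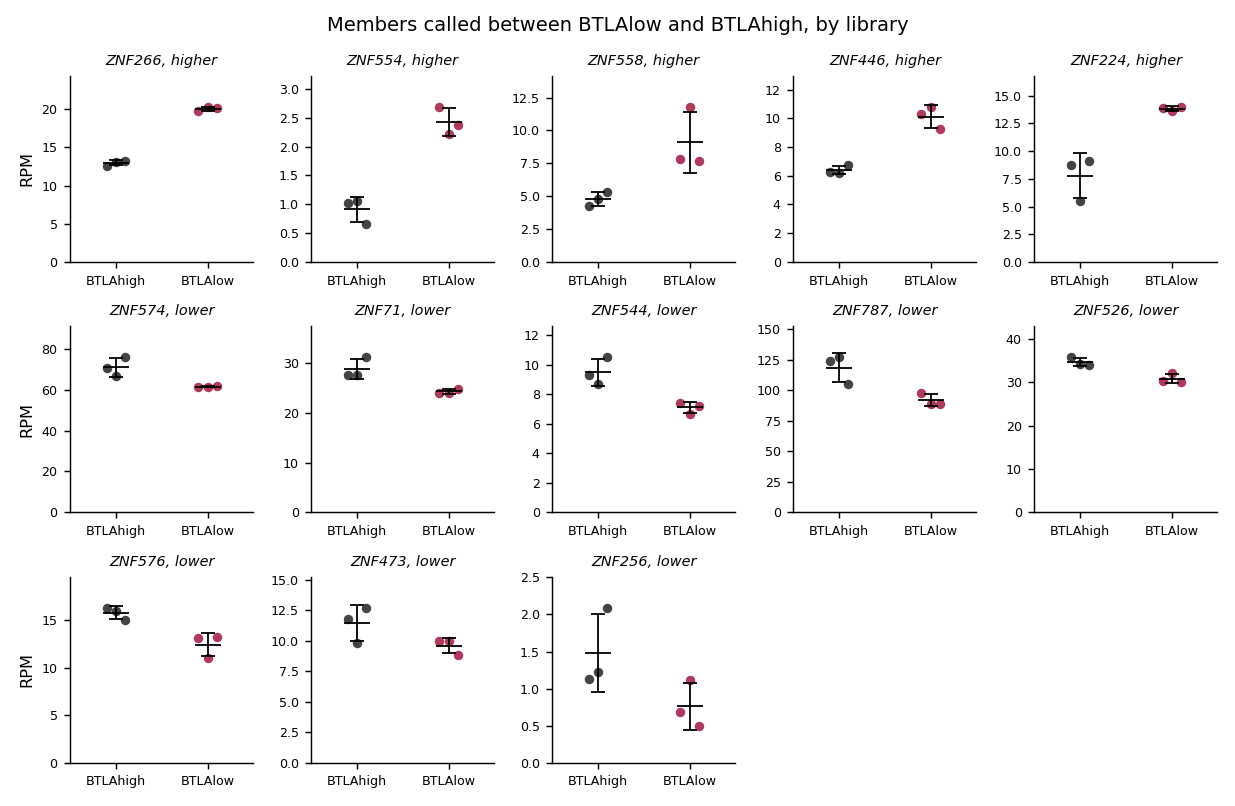
RPM of each library (points) with mean and SD (bars, n = 3) for the 13 members called between BTLAlow and BTLAhigh, the 5 higher ones in the first row and the 8 lower ones below. In RPM, before centring, the 2 groups overlap only for ZNF473, where BTLAhigh 2 (9.81) lies within the BTLAlow libraries.

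The 8 members called lower were mostly abundant ones with smaller differences. ZNF574 had 61.4, 61.3 and 61.9 RPM in BTLAlow and 70.5, 66.7 and 75.9 RPM in BTLAhigh. Its BTLAlow libraries were nearly equal and all below BTLAhigh, with a centred log2 difference of -0.38 ± 0.07 (SE, limma, adjusted p = 0.00651). ZNF787 had 97.5, 89.0 and 89.1 RPM against 124, 127 and 105 (-0.54 ± 0.12, adjusted p = 0.00963). It was the one lower call that also passed on library totals, and it did not pass without BTLAhigh 1 (adjusted p = 0.0597). ZNF71 had 24.1, 24.1 and 24.9 RPM against 27.6, 27.7 and 31.2 (-0.41 ± 0.09, adjusted p = 0.00861), and ZNF544 had 7.42, 6.68 and 7.23 RPM against 9.27, 8.66 and 10.5 (-0.58 ± 0.12, adjusted p = 0.00954). Both kept their call when any 1 library was left out. ZNF544 shared 10.1% of its 100-base stretches with other genes and ZNF71 2.95%. ZNF526 had 30.4, 32.1 and 30.1 RPM against 35.8, 34.2 and 34.0 (-0.34 ± 0.09, adjusted p = 0.0183). ZNF576 had 13.1, 11 and 13.2 RPM against 16.3, 16 and 15 (-0.52 ± 0.13, adjusted p = 0.0188). ZNF526 was not called without BTLAlow 3, BTLAhigh 1 or BTLAhigh 2 (adjusted p = 0.0758, 0.0945 and 0.0596), nor ZNF576 without BTLAhigh 1 or BTLAhigh 2 (0.0874 and 0.0564).

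The remaining lower calls were the least stable. ZNF473, a protein of histone pre-mRNA processing also called ZFP100, had 9.94, 10.0 and 8.87 RPM against 11.8, 9.81 and 12.7. In RPM the groups overlapped, and after centring the difference was -0.41 ± 0.12 (limma, adjusted p = 0.0311). The call was lost without BTLAlow 2, BTLAlow 3, BTLAhigh 1 or BTLAhigh 3 (adjusted p = 0.0673, 0.119, 0.121 and 0.0554). ZNF256, a KRAB protein also called BMZF3, was scarce, at 0.681, 1.11 and 0.493 RPM against 1.13, 1.22 and 2.09. BTLAlow 2 and BTLAhigh 1 were nearly level, and the difference of -1.06 ± 0.32 (adjusted p = 0.037) did not pass with limma voom (0.0545) or without BTLAlow 1, BTLAlow 3 or any 1 BTLAhigh library (0.0632 to 0.128). For comparison, ZNF114 had 3.54, 4.24 and 2.99 RPM against 3.94, 4.73 and 4.52, which overlap before centring and not after it, and a centred difference of -0.47 ± 0.17 that did not pass (adjusted p = 0.0717).

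Members with and without KRAB-like letters were described apart. With the letters, 4 were called higher and 4 lower of 135 in the sort (5.93%, all genes 25.3%), with a median log2 difference of -0.03. Without them, 1 was higher (ZNF446) and 4 lower (ZNF574, ZNF787, ZNF526 and ZNF576) of 28 (17.9%). Their median was -0.12, and only 4 of the 28 differences were above 0. The letter pattern was widened after ZNF473 and ZNF544 were seen to be missed, and both are among the 4 lower calls with the letters. ZNF446, known as a KRAB protein, is still missed, so the calls counted in each class depend on the pattern. The groups also differ in level, which bears on this split. Above 10 RPM the median was -0.14 over 23 members without the letters, 0 over 20 members with them and -0.07 over all 8969 genes at that level. On library totals the medians of the groups were 0.05 and 0.15, so the sign depends on the scaling. In the knockdown the medians were -0.03 over 28 and -0.05 over 138 members. Positions along the chromosome were likewise mixed. In the cluster from 55.5 to 58.5 Mb 1 of 53 members was called higher and 4 lower, in the cluster from 43.5 to 45.1 Mb 1 and 1 of 23, and in the cluster from 7.1 to 9.8 Mb 2 higher of 13, while no member was called in the clusters from 11.5 to 12.6 Mb, from 19.7 to 24.1 Mb, from 36.2 to 37.8 Mb and from 51.6 to 53.6 Mb (9, 13, 20 and 17 tested).

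**Figure D4:**
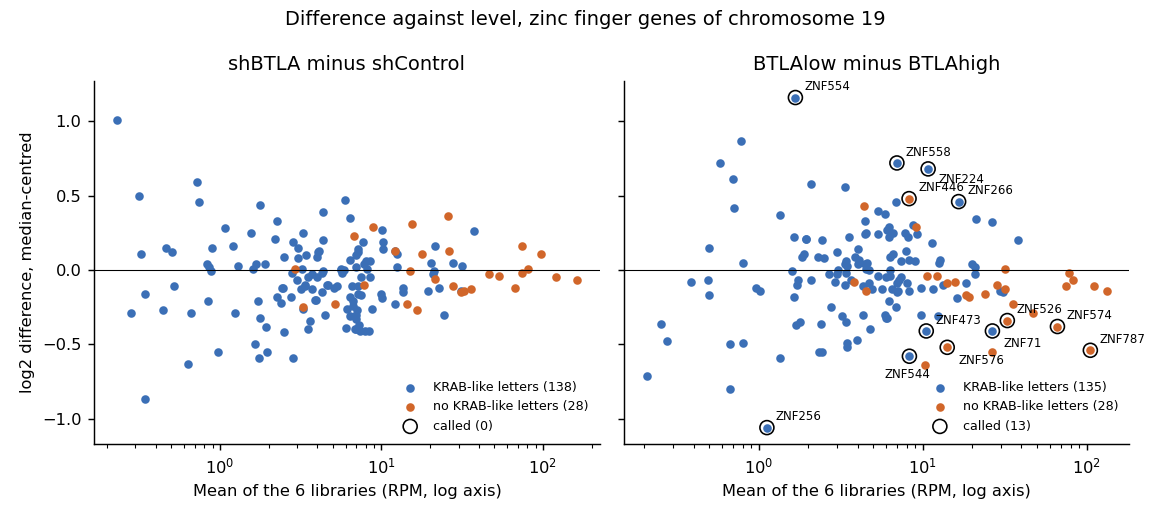
Centred log2 difference of each tested member against its mean level in the 6 libraries (RPM, log axis), for shBTLA minus shControl (left, 166 members) and BTLAlow minus BTLAhigh (right, 163 members). Circles mark the 13 members called in the sort, and members without KRAB-like letters (orange) lie mostly above 10 RPM and, on the right, mostly below 0.

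Partners of KRAB proteins and more general chromatin factors, together called cofactors here, were followed as a list of 32 genes. The list held TRIM28, SETDB1, heterochromatin proteins, histone deacetylase and methyltransferase complexes, DNA methyltransferases and the HUSH complex. It also held other chromatin factors, among them UHRF1, KDM1A, ADNP, POGZ and CTCF, and all 32 were tested. In the knockdown 0 were called with limma, nor with limma voom (0), with a median of -0.09 (all genes 1.74% called, 1.77% with voom). Before adjustment 1 cofactor was higher and 3 lower at p under 0.05, beside 1039 and 990 of all 16630 genes. TRIM28 had 1329, 1372 and 1331 RPM in shBTLA and 1218, 1509.6 and 1371 RPM in shControl. The groups overlapped and the log2 difference was 0.01 ± 0.15 (SE, limma, adjusted p = 0.983). In the sort 2 of the 32 were called higher and 7 lower, which is 28.1% beside 25.3% of all genes and 28.5% of protein-coding genes. TRIM28 had 1055, 971 and 1030.1 RPM in BTLAlow and 1439, 1408 and 1279 RPM in BTLAhigh. No library overlapped, and the difference was -0.60 ± 0.11 (adjusted p = 0.00386). SETDB1 had 17.2 RPM ± 3.28 in BTLAlow and 13.5 ± 2.36 in BTLAhigh (mean ± SD, n = 3), a difference of 0.18 ± 0.14 that did not pass (adjusted p = 0.389).

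The other cofactors called lower were the histone methyltransferases SUV39H1 (-0.50) and SUV39H2 (-0.37), UHRF1, which guides maintenance methylation (-0.54), the maintenance methyltransferase DNMT1 (-0.29), the demethylase KDM1A (-0.33) and the heterochromatin protein CBX3 (-0.26), with adjusted p between 0.00977 and 0.049 (limma). The 2 called higher were DNMT3A, a de novo DNA methyltransferase, at 13.0 RPM ± 1.84 against 7.15 ± 1.51 (0.69 ± 0.15, adjusted p = 0.00922), and CHD3, a remodeller that binds TRIM28, at 458 RPM ± 24.5 against 317 ± 15.9 (0.36 ± 0.07, adjusted p = 0.00769). On library totals TRIM28 (-0.43, adjusted p = 0.00301) and SUV39H1 (-0.33, adjusted p = 0.031) stayed lower and DNMT3A and CHD3 higher, the other 5 did not pass, and POGZ was called higher as well. The count of lower cofactors fell to 1 without BTLAhigh 1 and to 3 without BTLAlow 3, and that of higher ones to 1 without BTLAhigh 1. Calls over all genes fell too, from 13.2% lower to 5.21% without BTLAhigh 1 and 6.83% without BTLAlow 3. The share of all genes called higher went from 12.1% to 6.49% without BTLAhigh 1. TRIM28 and DNMT3A were called in all 14 alternatives, while the calls of CBX3 and DNMT1 were lost in 8 and 12 of them.

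The experiments share no library, and with 0 members called in the knockdown their calls could not overlap. Over the 162 members tested in both, the log2 differences of the knockdown and of the sort had a Pearson r of 0.0254 and a Spearman rho of 0.003 (a description across genes, which are not independent replicates), and 84 had the same sign. Over all 16160 genes tested in both, r was 0.331. ZNF71 was the one member called in the sort whose unadjusted p was also under 0.05 in the knockdown, with lower values in both. ZNF473 pointed in opposite directions, at 0.27 ± 0.13 in the knockdown (adjusted p = 0.488) and -0.41 ± 0.12 in the sort. ZNF266, the clearest of the higher calls of the sort, had 11.5, 12.6 and 12.9 RPM in shBTLA and 13.3, 12.1 and 12 RPM in shControl, overlapping groups with a difference of 0.02 ± 0.12 (limma, adjusted p = 0.974).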

How the data were processed

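RNA-Seq was made from A549 cells, 3 libraries each of shBTLA, shControl, BTLAlow and BTLAhigh, grouped by their labels. Per the labels and methods, the authors used Trim Galore 0.6.6 for trimming, STAR for alignment (GRCh38) and featureCounts for counting on Ensembl genes, and deposited RPKM for each library. The authors' edgeR comparisons (fold changes, p-values and related columns) were not used, except for gene names and positions. How strand and multi-mapping reads were handled is not stated. The deposited RPKM divide each gene by the length of another gene, the one at its place in the sorted list of IDs, so they compare libraries but not genes. Multiplying back gave whole reads (100% of values within 0.02 of a read), with lengths known for 58797 of 60617 genes and searched for 1056 of the others, and the search gave the same reads for 173 of 200 genes with a known length. Of counts from 1 to 20, 60.8% were even against 50% by chance, so mates of a pair may have been counted singly and independent fragments may be fewer than reads. Depths were 29130357 to 42488067 reads.

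Reads were divided by library totals (RPM), taken as log2(RPM + 0.1) and centred on the median deviation of the tested genes, those with at least 10 reads in 3 of 6 libraries. Each experiment was fitted with limma 3.58.1 (lmFit, eBayes with trend, R 4.3.3), p was adjusted by Benjamini-Hochberg over all genes tested and called under 0.05. Differences are on the log2(RPM + 0.1) scale, which understates changes of low genes. The unit being RPKM with other genes' lengths, RPM from recovered reads was tested in place of RPKM. Named members were the called ones (where under 10 were called, the 5 smallest p each way), fixed members of known role, members called in both and TRIM28, SETDB1 and called cofactors. Finger, KRAB-like and shared-sequence letters came from GENCODE transcripts (longest open reading frame), not from a protein table as planned. The KRAB pattern was widened after the proteins of ZNF473 and ZNF544, both called lower in the sort, were seen to be missed. Start regions came from RefSeq (GRCh38.p14), the first listed start of a gene. Members were set by symbol and chromosome, but this rule and the lists were chosen with earlier results of these data known. Alternatives were library totals, limma voom, pseudocounts of 0.5 and 1, no filter or at least 30 reads, the deposited RPKM, a replicate block, leaving out each library and members that overlap no gene.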

Additional observations from a re-analysis of the deposited data

How the results depend on the processing

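In the knockdown 0 members and 0 cofactors were called under every alternative tried, with each of the 6 libraries left out (0 to 0 called either way), with limma voom and with the replicate block, which called 553 genes in all against 290 (43 to 561 when a library was left out). Members without overlap (25 of 166, 15.1%) were 8 of the 53 overlapping no gene (15.1%) and 31 to 55 when a library was left out (18.7% to 33.1%, all genes 24.2% to 41.7%).

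Members called in the sort were 5 higher and 8 lower (7.98%, all genes 25.3%). With library totals these counts became 12 and 1 (7.98%, all genes 25.4%), and with the deposited RPKM 9 and 5 (8.59%, all genes 18.6%). With the replicate block they were 3 and 2 (3.07%, all genes 12.4%). No filter gave 7 and 5 of 203 members (5.91%, beside 10.7% of 31691 genes). Among the 52 members overlapping no gene they were 2 and 3 (9.62% called against 7.98% of all members). Leaving out a library gave 3 to 12 higher and 3 to 9 lower (3.68% to 12.9% called, all genes 11.7% to 32.2%), with medians of -0.07 to 0. It gave 41 to 67 members without overlap (25.2% to 41.1%, all genes 45.2% to 58.3%). With all libraries these were 36 (14 of the 52 overlapping no gene, 26.9% against 22.1%). The median of -0.07 became 0.11 with library totals and -0.02 with no filter or with RPKM. Of 32 cofactors, those called lower (7) became 2 with library totals and 3 with no filter, with RPKM and with the block. Over all genes the share called lower (13.2%) became 6.25% with library totals, 4.69% with no filter, 7.91% with RPKM and 5.72% with the block. Cofactors called higher (2) became 1 with the block (all genes 12.1% and 6.68%). Leaving out a library gave 1 to 8 lower and 1 to 2 higher (all genes 5.21% to 17.1% lower and 6.49% to 15.2% higher). None of the 13 members called in the sort, nor the 10 members of smallest p in the knockdown, changed direction. Among genes named for a known role and not called in that experiment, library totals turned ZNF146, ZNF274, ZNF331 and ZNF180 positive in the sort (0.03, 0.03, 0.15 and 0.13) and ZNF266 and TRIM28 negative in the knockdown (-0.01 and -0.02). With no filter these were 0.03 (ZNF331), 0.01 (ZNF180), -0.03 (ZNF266) and -0.03 (TRIM28), with RPKM 0.03 (ZNF331) and 0.02 (ZNF180), and with a pseudocount of 1 ZNF331 was at 0. Leaving out a library turned some of these values too, with ranges in the knockdown of -0.02 to 0.09 (ZNF266), -0.44 to 0.11 (ZNF91), -0.17 to 0.06 (ZNF146), -0.10 to 0.22 (ZNF420), -0.03 to 0.31 (ZNF224), -0.03 to 0.34 (ZNF180), -0.08 to 0.03 (ZNF331) and -0.13 to 0.14 (TRIM28), and in the sort of -0.19 to 0.05 (ZNF180), -0.11 to 0.09 (ZNF350) and -0.07 to 0.04 (ZNF331). Deviations of same-numbered libraries correlated at 0.218, 0.406 and -0.039 in the knockdown and at 0.0683, -0.373 and -0.165 in the sort. In neither experiment did every pair exceed 0.1, so the numbers were taken not to pair the libraries, and under the block 5 of the 13 members stayed called (ZNF224, ZNF544, ZNF554, ZNF558 and ZNF787), with 2098 genes called in all against 4272 (1979 to 5453 when a library was left out). Pseudocounts of 0.5 and 1, a filter of 30 reads and limma voom shared 13, 13, 13 and 12 of the 13 calls. With too few reads, 80 members were not tested, 33 of them with none.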
